A study of Mus musculus x Mus spretus with 8 samples.

Results

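The serum amyloid A genes encode a family of small secreted apolipoproteins. Saa1, Saa2, Saa3 and Saa4 were followed here in Patski cells, a female mouse fibroblast line from a cross of C57BL/6 and SPRET/EiJ. The members were the rows of the gene count table whose Ensembl identifiers carry these 4 symbols, 4 of 49670 rows. Of these, 3 passed the filter on low counts, which kept 17839 genes. The family was selected on its measured fold change between Pygo1-KO and WT libraries, so that comparison is described without a test. There were 8 RNA-seq libraries in 4 groups of 2: cells labelled homozygous null for Stc1 (Stc1-KO), for Pygo1 (Pygo1-KO) and for Rlim (Rlim-KO), and wild-type cells (WT). The labels name no treatment, 1 serum-containing medium and the same hybrid genome for all groups. The submitters described each knockout pair as independent mutants. No label says that the WT libraries came from separate cultures, so p-values measure only the spread between these libraries.

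Total counts were between 73128996 and 81500061 per library. RNA of the targeted gene was lower than in WT in both libraries labelled for it in none of the 3 knockouts, and clearly lower in 1 library, Pygo1-KO replicate 2. Stc1 stood at 3.67 and 68.4 CPM (counts of a gene per 1000000 counts of the library) in the Stc1-KO libraries, against 3.84 and 3.15 CPM in WT. Pygo1 stood at 2.5 and 0.674 CPM in the Pygo1-KO libraries, against 2.49 and 2.44 CPM in WT, and Rlim at 71.9 and 64.2 CPM in the Rlim-KO libraries, against 57.2 and 51.4 CPM in WT. A small deletion or frameshift can leave RNA in place, so these levels do not check the labels, and "KO" below means the library labelled so. Libraries of a pair were unequally alike: the median absolute log2 difference over genes within a pair was 0.316 for Stc1-KO, 0.200 for Pygo1-KO, 0.0765 for Rlim-KO and 0.103 for WT. The Rlim-KO pair was thus closer than the WT pair, and beyond the submitters' description nothing here shows that its 2 libraries come from separate mutants. Of 10 fibroblast markers, Vim and Fn1 made up most of a summed level of 2444 to 5603 CPM, whereas Lum and Thy1 were at or near 0 in every library and Col1a1 reached at most 8.19 CPM.

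Serum amyloid A proteins travel on high-density lipoprotein and are classical acute-phase reactants, which rise in blood during infection and injury. In mice, Saa1 and Saa2 are made mainly by hepatocytes, Saa3 is made largely outside the liver by macrophages, adipocytes, epithelia and stromal cells, and Saa4 is expressed constitutively at a low level. The inducible genes respond to interleukin 1, tumour necrosis factor and interleukin 6 through NF-kappaB, C/EBP factors and STAT3.

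The family lies in one cluster of 42316 bases on mouse chromosome 7 (build GRCm38/mm10). Saa3 (ENSMUSG00000040026) occupies chr7:46711998-46715700 on the minus strand. Saa4 (ENSMUSG00000040017) occupies chr7:46727998-46732603 on the minus strand, Saa1 (ENSMUSG00000074115) chr7:46740497-46742980 on the minus strand, and Saa2 (ENSMUSG00000057465) chr7:46751790-46754313 on the plus strand. The beginning of each coding sequence is printed to show how far reads of one gene can be told from those of another. Each run covers coding bases 1 to 150, joined across exons, from the GENCODE transcript of the build, and capitals mark bases that differ from Saa1 at the same position, with no gaps placed. With their introns the runs span chr7:46741336-46742522 for Saa1 and chr7:46752291-46753476 for Saa2, and chr7:46712669-46715100 for Saa3 and chr7:46730117-46731696 for Saa4, on the strands given.
Saa1: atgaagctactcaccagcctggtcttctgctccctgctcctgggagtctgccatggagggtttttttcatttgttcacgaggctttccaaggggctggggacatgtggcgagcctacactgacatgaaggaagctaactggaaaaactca
Saa2: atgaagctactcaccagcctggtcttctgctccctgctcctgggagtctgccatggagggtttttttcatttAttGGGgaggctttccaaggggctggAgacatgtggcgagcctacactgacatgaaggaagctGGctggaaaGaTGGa
Saa3: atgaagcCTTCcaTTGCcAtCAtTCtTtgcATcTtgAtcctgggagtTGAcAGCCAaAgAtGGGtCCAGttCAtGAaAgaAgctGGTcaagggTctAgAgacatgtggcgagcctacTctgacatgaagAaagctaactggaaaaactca
Saa4: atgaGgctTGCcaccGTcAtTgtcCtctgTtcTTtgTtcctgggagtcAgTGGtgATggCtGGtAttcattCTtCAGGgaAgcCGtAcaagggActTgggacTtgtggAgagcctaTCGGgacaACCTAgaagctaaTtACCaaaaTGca
Over these 150 bases Saa2 differed from Saa1 at 11 positions, Saa3 at 49 and Saa4 at 52. Saa1 and Saa2, the liver-type pair, were near copies: their whole coding sequences of 366 bases were 95.1% identical, with 18 mismatches. Compared base by base, Saa3 was 73.0% identical to Saa1. Of the 560 windows of 50 bases in the Saa1 mRNA, 74 (13.2%) also occurred in the Saa2 mRNA and 9 (1.61%) in the Saa3 mRNA. No source used here states the read length or what was done with reads that match several places, so the split of reads between Saa1 and Saa2 is uncertain, while Saa3 shares little sequence that could move reads to or from it.

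Saa3 was the most abundant member in all 8 libraries and stood higher in each of the 6 KO libraries than in either WT library. Its level was 19.3 and 64.3 CPM in Stc1-KO, 307 and 107 CPM in Pygo1-KO, 130 and 133 CPM in Rlim-KO, and 3.01 and 3.11 CPM in WT. The WT values rest on 231 and 248 reads and the highest KO value on 24391 reads. Pygo1-KO replicate 1 was the highest library and Stc1-KO replicate 1 the lowest of the KO libraries, and no KO library overlapped WT. By rank among all 49670 rows, Saa3 stood 560th in Pygo1-KO replicate 1 and 1636th and 1613th in Rlim-KO, against 11227th and 11154th in WT. In RNA from a whole culture, more cells that express a gene and more RNA per expressing cell cannot be told apart.

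**Figure D1:**
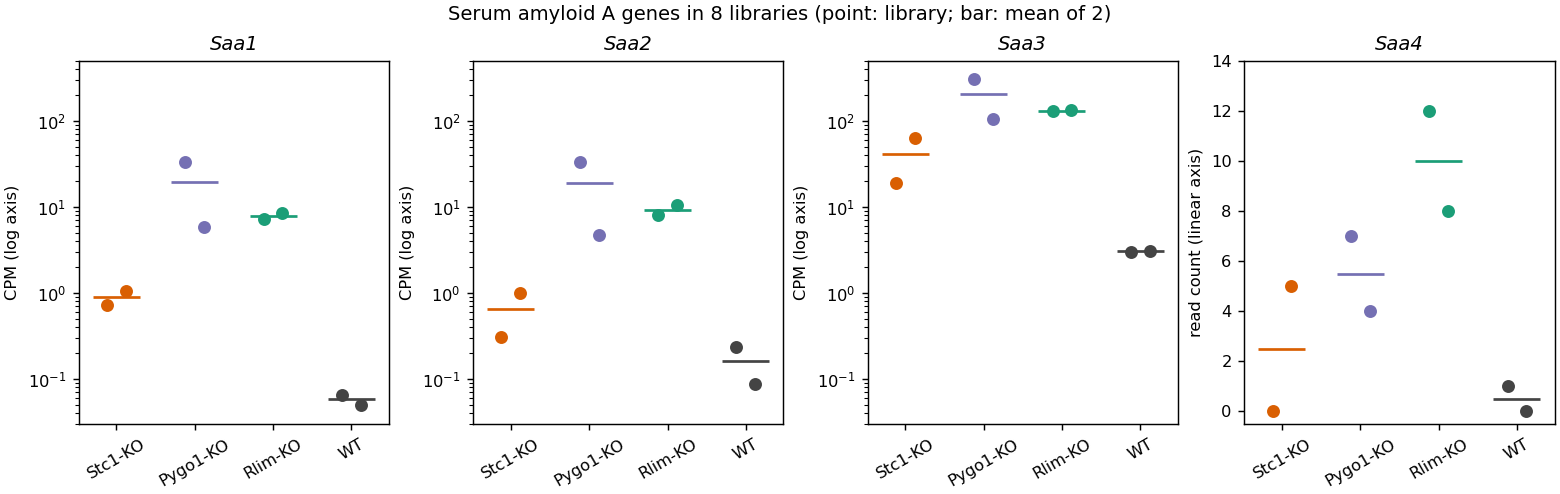
Levels of Saa1, Saa2 and Saa3 in CPM on a log axis and of Saa4 in read counts on a linear axis, by group; a point is a library and a bar the mean of 2. Saa3 lies between 19.3 and 307 CPM in the KO libraries and near 3 CPM in both WT libraries.

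In the fit over all 8 libraries, Saa3 rose in Rlim-KO against WT by 5.42 ± 0.75 on the log2 scale (SE, 2 libraries per group), which is 42.9-fold (edgeR quasi-likelihood test, Benjamini-Hochberg adjusted p = 0.0298). In that comparison 1.4% of all tested genes were called, 0.785% higher and 0.617% lower. The Stc1-KO difference, 3.77 ± 0.70 or 13.7-fold, missed the threshold of 0.05 (edgeR adjusted p = 0.0784; DESeq2 called it, with 3.77 and adjusted p = 8.16e-10), in a comparison that called 0.577% of genes, 0.286% higher and 0.291% lower. Pygo1-KO stood 67.6-fold above WT, a log2 difference of 6.08 ± 0.77 that is given as a description and not as support. Of all tested genes 2.35% were called there, 1.54% higher and 0.807% lower. The same WT libraries serve all 3 comparisons, so these are not independent of each other. The share of all tested genes with every KO library above both WT libraries was 9.3%. The Rlim-KO call rested on each library of the pair and of WT: the log2 difference lay between 5.41 and 5.45 without any of these 4, with edgeR adjusted p between 0.24 and 0.358. Without Stc1-KO replicate 1, the Stc1-KO difference was 4.39 (edgeR adjusted p = 0.00232), and without replicate 2 it was 2.65 (edgeR adjusted p = 0.0342).

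Saa1, the main inducible liver form together with Saa2, was close to the detection limit in WT and was found in every KO library. It had 0.734 and 1.06 CPM in Stc1-KO, 33.3 and 5.90 CPM in Pygo1-KO, 7.33 and 8.56 CPM in Rlim-KO, and 0.0651 and 0.0501 CPM in WT. These are 53 and 80 reads in Stc1-KO, 2647 and 429 in Pygo1-KO, 559 and 666 in Rlim-KO, and 5 and 4 in WT. The groups did not overlap WT, and Pygo1-KO replicate 1 was again the highest library, 5.64 times its partner. Saa1 passed the filter on low counts through the KO libraries alone, so a difference was a condition for its being tested in the main fit.

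Saa1 stood 134-fold above WT in Rlim-KO, a log2 difference of 7.07 ± 0.98 (edgeR adjusted p = 0.0311). Its difference was 7.05 in the fit without the filter, where testing did not depend on the KO levels (edgeR adjusted p = 0.000454). That fit kept every gene with a read, which also changed the estimate of spread. The SE of the Stc1-KO difference was 0.76 there against 0.97, so the smaller p-value is not stronger support. The Stc1-KO difference was 3.93 ± 0.97, or 15.2-fold, and missed the threshold (edgeR adjusted p = 0.146; DESeq2 called it, with 3.96 and adjusted p = 5.16e-05). Pygo1-KO stood 332-fold above WT (log2 8.37 ± 1.01, a description). The Rlim-KO call ended without any 1 of the 2 Rlim-KO or 2 WT libraries, with log2 differences between 6.90 and 7.27 and edgeR adjusted p between 0.233 and 0.358. Without either Pygo1-KO library, the Stc1-KO difference passed (log2 3.92, edgeR adjusted p = 0.0192 in both cases). For the Rlim-KO difference a normal approximation from the SE gave 5.14 to 9.0 on the log2 scale as a 95% interval. It treats the spread as known, though few libraries estimate it, so it is too narrow. The SE of the Rlim-KO difference was 0.35 and 0.32 without Pygo1-KO replicate 1 or 2.

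Saa2 had 0.305 and 1.01 CPM in Stc1-KO, 33.5 and 4.78 CPM in Pygo1-KO, 8.11 and 10.4 CPM in Rlim-KO, and 0.234 and 0.0877 CPM in WT. The WT values are 18 and 7 reads. All KO libraries stood above both WT libraries, but Stc1-KO replicate 1 was only 1.89 times the WT mean. Saa2 was over the filter cutoff in 1 of 2 WT libraries, so it too passed only with the KO libraries. As for Saa1, its being tested in the main fit was thus not independent of the KO levels. The Rlim-KO difference, 5.84 ± 1.14 on the log2 scale or 57.3-fold, missed the threshold (edgeR adjusted p = 0.0643), as did the Stc1-KO difference of 2.03 ± 1.1 or 4.08-fold (edgeR adjusted p = 0.416). Pygo1-KO stood 118-fold above WT (log2 6.89 ± 1.18, a description). When the reads of Saa1 and Saa2 were added together, which removes the question of how the near copies were split, the Rlim-KO difference was 6.29 and passed the threshold (edgeR adjusted p = 0.0431). Saa2 alone also passed in Rlim-KO without Stc1-KO replicate 1 or 2 (edgeR adjusted p = 0.0146 and 0.0145) and without Pygo1-KO replicate 1 or 2 (edgeR adjusted p = 0.0363 and 0.033).

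Saa4, the constitutive member, stayed close to 0. It had 0 and 5 reads in Stc1-KO, 7 and 4 in Pygo1-KO, 12 and 8 in Rlim-KO, and 1 and 0 in WT. The Pygo1-KO and Rlim-KO counts were above both WT counts, and the Stc1-KO counts overlapped WT. Saa4 did not pass the filter and was not tested in the main fit.

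Stc1-KO and Rlim-KO were also compared with each other. All 3 tested members stood lower in both Stc1-KO libraries than in both Rlim-KO libraries, as did 23.4% of all tested genes, and none of the 3 differences passed the threshold, where edgeR called 0.381% of all genes. An unadjusted p under 0.05 was reached by all 3, and DESeq2 called all 3. Over all genes DESeq2 called 776 in this comparison, against 68 by edgeR. The share of all genes at that unadjusted p is not given here, so the 3 members reaching it are a description. The log2 difference was -1.65 ± 0.63 for Saa3 (edgeR adjusted p = 0.293), -3.14 ± 0.75 for Saa1 (edgeR adjusted p = 0.135) and -3.81 ± 1.00 for Saa2 (edgeR adjusted p = 0.165). For Saa3 a normal approximation from the SE gave -2.88 to -0.42 as a 95% interval, which is too narrow because few libraries estimate the spread. Without Stc1-KO replicate 2, the library with the higher Saa3 level, the Saa3 difference was -2.77 (edgeR adjusted p = 0.0457). The Saa1 difference, still -3.14, passed without Pygo1-KO replicate 1 or 2 (edgeR adjusted p = 0.0167 and 0.0132).

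Saa3 supplied most of the family's RNA in every library, whatever the amount. Reads of all 4 genes together were 20.05 and 66.6 CPM in Stc1-KO, 375 and 115 in Pygo1-KO, 149 and 155 in Rlim-KO, and 3.35 and 3.18 in WT. Saa3 supplied 94.9% and 96.8% of them in Stc1-KO, 82.1% and 90.9% in Pygo1-KO, 89.3% and 87.4% in Rlim-KO, and 90.6% and 95.8% in WT. Saa1 and Saa2 together made up nearly all the rest, with 5.12% and 3.12% in Stc1-KO, 17.9% and 9.07% in Pygo1-KO, 10.6% and 12.5% in Rlim-KO, and 9.02% and 4.25% in WT. The WT shares lay inside the range of the KO libraries. Per kilobase of mRNA, Saa3 stood 28.8 and 66.3 times above Saa1 in Stc1-KO, 10.1 and 19.9 times in Pygo1-KO, 19.4 and 17.1 times in Rlim-KO, and 50.7 and 68.0 times in WT. The form made largely outside the liver thus stood above Saa1 in every library.

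**Figure D2:**
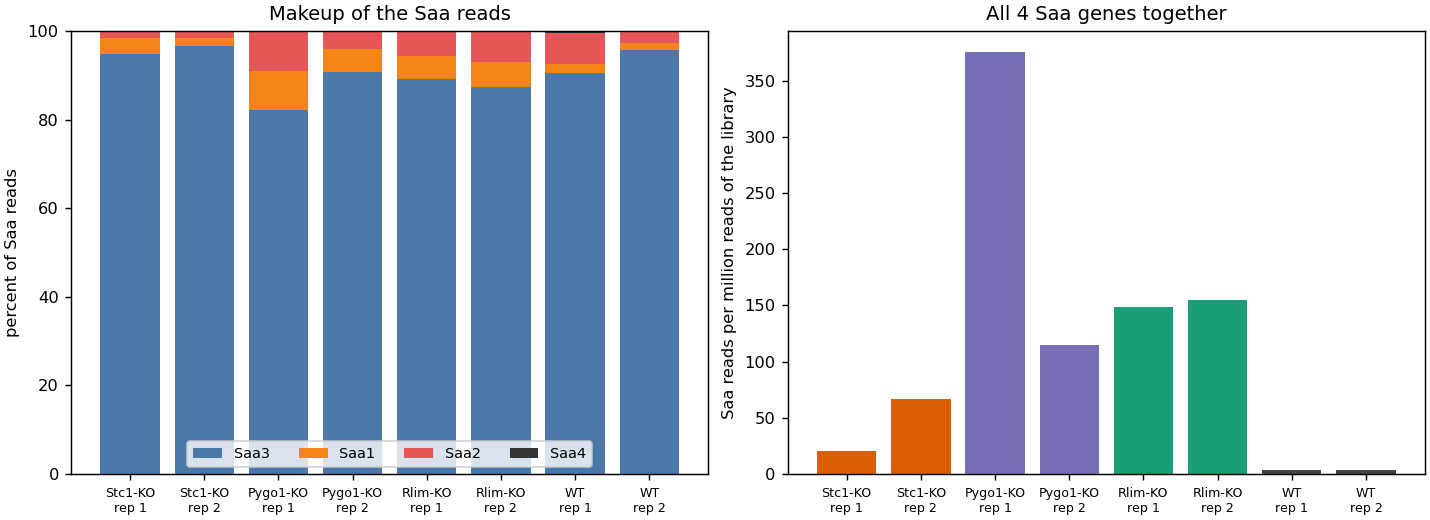
Stacked bars give the percent of the family's reads from each gene by library, and plain bars the reads of all 4 genes in CPM of the library's total. Saa3 makes up 82.1% to 96.8% of the reads in the 8 libraries, while the total lies between 20.05 and 375 CPM in KO libraries and at 3.35 and 3.18 CPM in WT.

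Because the cells carry 2 parental genomes, the authors also counted the reads that could be assigned to genome 1 or to genome 2. The sources used here name no parent for genome 1 or genome 2, and no method for splitting the reads. Over the 8 libraries together, 17226 reads of Saa3 (29.1% of its reads) carried a genome, and 139 of them, 0.807%, came from genome 1 (95% Wilson interval 0.684% to 0.952%, counting error only). For Saa1 the share was 3 of 2774 reads, or 0.108%, and for Saa2 it was 24 of 3946, or 0.608%. Nearly all assigned reads of these 3 genes were thus on genome 2. The part that the splitting of reads plays in these shares was not tested.

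The genome 1 share of Saa3 was low at every level of the gene. It was 0.769% and 0.711% in Stc1-KO, 0.374% and 0.681% in Pygo1-KO, and 1.18% and 1.63% in Rlim-KO. In WT it was 0 of 59 and 0 of 66 reads, which allows shares of up to 5.08% and 4.55%. On chromosome 7, 24 of 876 genes (2.74%) had a pooled genome 1 share under 5%, Saa3 among them, and over all autosomes 1359 of 11016 genes (12.3%) did. The pooled median over genes of chromosome 7 was 42.0%. Genes beside the cluster carried both genomes: Saal1, the gene next to Saa3, had a genome 1 share of 13.9% to 17.1% over the libraries, Hps5, a subunit of a lysosome-related trafficking complex on the other side, 12.2% to 18.0%, and Gtf2h1, a subunit of transcription factor TFIIH, 54.5% to 63.4%.

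**Figure D3:**
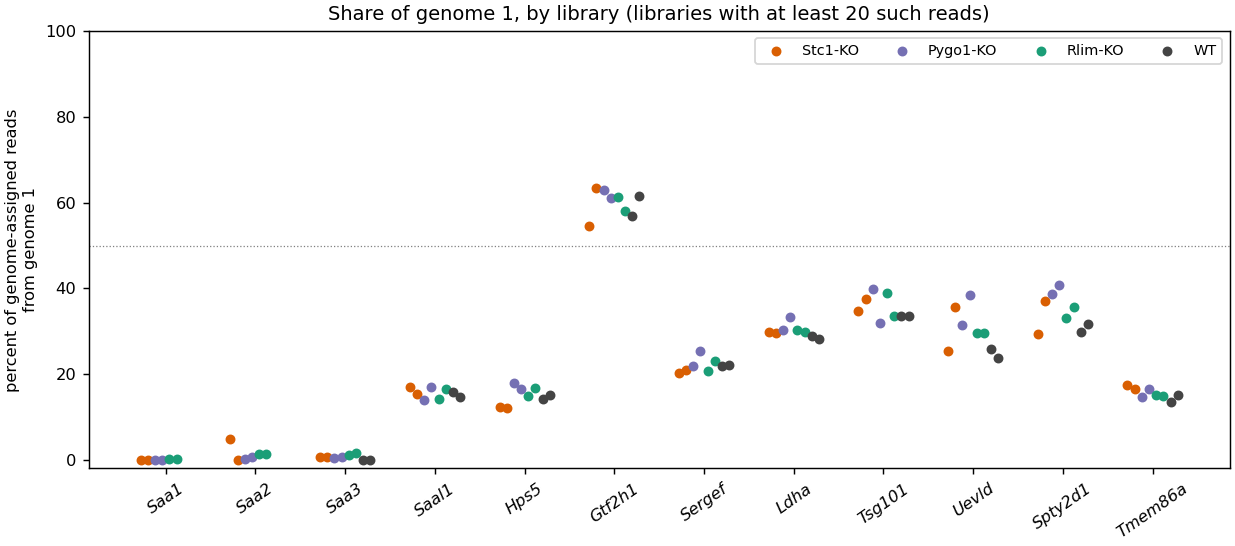
Percent of genome-assigned reads that came from genome 1 for Saa1, Saa2, Saa3 and 9 genes beside the cluster; a point is a library with at least 20 such reads, coloured by group, and the dotted line marks equal shares. Saa3 lies at or under 1.63% in all libraries, while Saal1, Hps5 and Gtf2h1 lie between 12.2% and 63.4%.

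Genes beside the cluster differed little from WT. Among 9 expressed neighbours within 500 kb (Saal1, Hps5, Gtf2h1, Sergef, Ldha, Tsg101, Uevld, Spty2d1 and Tmem86a), 0 were called in any comparison by edgeR. Of all tested genes edgeR called 0.577% in Stc1-KO, 2.35% in Pygo1-KO and 1.4% in Rlim-KO against WT, and 0.381% in Stc1-KO against Rlim-KO. An unadjusted p under 0.05 was reached by 1 of the 9 in each of the 4 comparisons, and DESeq2 called 1, Tmem86a, which was lower in Stc1-KO than in Rlim-KO. Over all 17839 tested genes, 2862 reached it in Stc1-KO and 3680 in Pygo1-KO against WT. The neighbours' log2 differences from WT lay between -0.39 and 0.50 in Stc1-KO, between -0.44 and 0.35 in Pygo1-KO and between -0.35 and 0.60 in Rlim-KO. Ldha, the lactate dehydrogenase subunit gene and the most abundant neighbour, differed by 0.50, 0.35 and 0.20 in Stc1-KO, Pygo1-KO and Rlim-KO. The median over the 764 tested genes of chromosome 7 that averaged at least 5 CPM was 0.04, -0.08 and 0.01 in the same order.

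**Figure D4:**
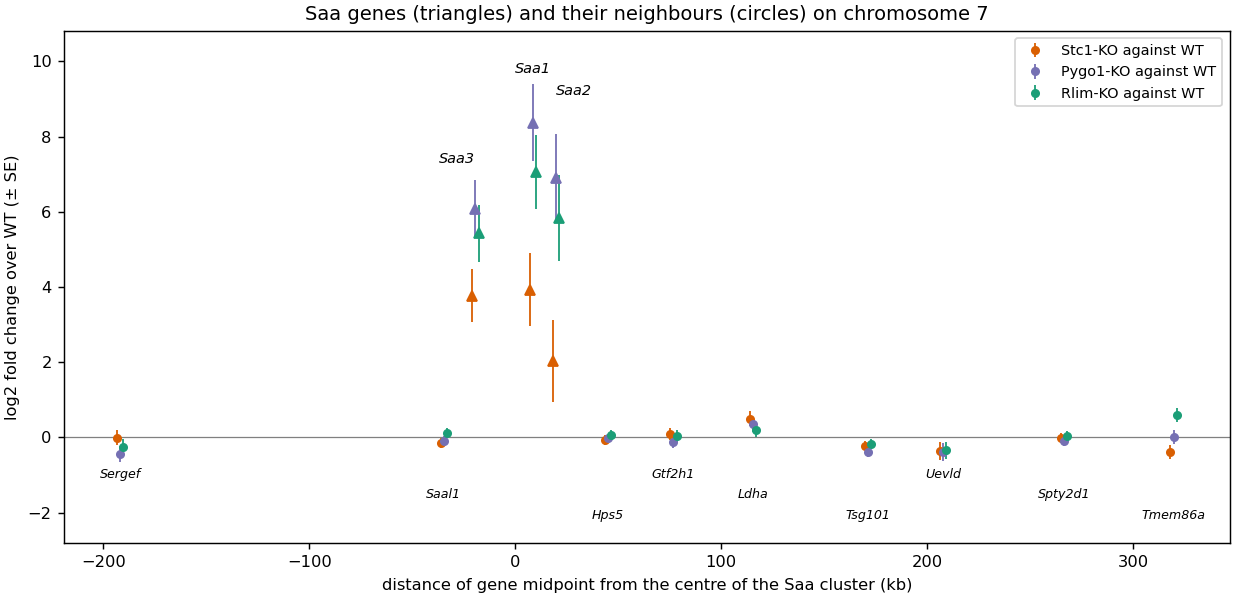
Log2 difference from WT of the serum amyloid A genes and their expressed neighbours, placed by distance in kb from the centre of the cluster, for Stc1-KO, Pygo1-KO and Rlim-KO; bars are standard errors. Saa1, Saa2 and Saa3 lie between 2.03 and 8.37, and the 9 neighbours between -0.44 and 0.60.

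Transcripts of the main inducing cytokines were scarce in these cells, and 1 related cytokine gene rose in all knockouts. Il1b, Il6 and Osm, encoding interleukin 1 beta, interleukin 6 and oncostatin M, were at or under 0.0554 CPM in KO libraries, against at most 0.0125 CPM in WT, and were not tested. Of 27 inducers and their receptors, 24 were tested, and edgeR called 1 higher in each comparison with WT, beside 0.286%, 1.54% and 0.785% of all tested genes in Stc1-KO, Pygo1-KO and Rlim-KO. DESeq2 gave 2, 4 and 1 higher genes in that order, and over all genes it called 434 higher in Stc1-KO and 924 in Pygo1-KO. In Rlim-KO DESeq2 called 1252 of all genes in both directions together, against 250 by edgeR. Lif, a cytokine of the interleukin 6 family, rose in all: it had 44.8 and 61.2 CPM in Stc1-KO, 38.2 and 41.5 CPM in Pygo1-KO, 47.6 and 48.2 CPM in Rlim-KO, and 18.9 and 20.1 CPM in WT. These are differences of 2.72-fold in Stc1-KO, 2.05-fold in Pygo1-KO and 2.46-fold in Rlim-KO (edgeR adjusted p = 0.0225, 0.0333 and 0.0252). The list's median log2 difference was 0.16, 0.26 and 0.04 in that order, beside 0.01, -0.0012 and 0.0065 over all tested genes. This list and those below were chosen with earlier results of these data known. Their counts and p-values, above all in Pygo1-KO, are therefore a description and not independent support. Tnf, the tumour necrosis factor gene, stayed at or under 0.385 CPM in KO libraries, against at most 0.0501 CPM in WT, and was not called. Il1a, encoding interleukin 1 alpha, reached 0.818 CPM in Pygo1-KO replicate 1 and was not called by edgeR, though DESeq2 called it higher in Pygo1-KO. Il1r1, the receptor of interleukin 1, had 16.6 and 23.7 CPM in Stc1-KO, 20.6 and 25.1 CPM in Pygo1-KO, 12.7 and 12.5 CPM in Rlim-KO, and 11.9 and 11.7 CPM in WT. It was not called by edgeR, and DESeq2 called it higher in Stc1-KO and Pygo1-KO.

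All 25 transcription factors and feedback regulators on the list were tested, and by edgeR 2 rose in Stc1-KO, 6 in Pygo1-KO and 2 in Rlim-KO, against 0.286%, 1.54% and 0.785% of all tested genes. DESeq2 called 6, 10 and 8 of them higher, but it called more of all genes in each comparison too. Over all genes it called 434 higher in Stc1-KO and 924 in Pygo1-KO, against 51 and 275 by edgeR. In Rlim-KO DESeq2 called 1252 of all genes in both directions together, against 250 by edgeR. No listed regulator was called lower by edgeR. At an unadjusted p under 0.05 there were 2, 2 and 1 lower genes on the list, and DESeq2 gave 0, 1 and 1. Cebpd, whose product C/EBP delta binds serum amyloid A promoters, had 39.6 and 43.6 CPM in Stc1-KO, 53.4 and 62.3 CPM in Pygo1-KO, 75.5 and 74.4 CPM in Rlim-KO, and 13.8 and 15.5 CPM in WT. It rose 2.83-fold, 3.94-fold and 5.10-fold in Stc1-KO, Pygo1-KO and Rlim-KO (edgeR adjusted p = 0.011, 0.00237 and 0.0016). Zc3h12a, encoding the RNase Regnase-1 that degrades inflammatory mRNAs, rose 5.17-fold, 4.22-fold and 4.40-fold (edgeR adjusted p = 0.00397, 0.00342 and 0.00459). The KO libraries of both genes stood above both WT libraries without overlap.

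In Pygo1-KO the called regulators also included Nfkb1, an NF-kappaB subunit, at 305 and 294 CPM in Pygo1-KO against 136 and 134 CPM in WT (2.22-fold, edgeR adjusted p = 0.0121), and Tnfaip3, the NF-kappaB inhibitor A20 (3.29-fold, edgeR adjusted p = 0.0436). Nfkbia, which encodes I-kappaB alpha, had 37.2 and 74.3 CPM in Stc1-KO, 47.8 and 48.4 CPM in Pygo1-KO, 49.5 and 48.4 CPM in Rlim-KO, and 15.3 and 16.5 CPM in WT, and was called in Pygo1-KO (edgeR adjusted p = 0.0652, 0.0474 and 0.0566 in that order). Values on either side of the threshold were thus close. Stat3 stood at 254 to 338 CPM in KO libraries, against 296 and 307 CPM in WT, and was not called. The list's median log2 difference was 0.36, 0.33 and 0.34 in Stc1-KO, Pygo1-KO and Rlim-KO.

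Of 37 other acute-phase genes, 26 were tested, and by edgeR 3 rose in Stc1-KO, 5 in Pygo1-KO and 4 in Rlim-KO, beside the same shares of all genes (0.286%, 1.54% and 0.785%). The DESeq2 counts of higher genes on the list were 8, 14 and 10. Over all genes DESeq2 called 434 higher in Stc1-KO and 924 in Pygo1-KO, against 51 and 275 by edgeR. In Rlim-KO DESeq2 called 1252 of all genes in both directions together, against 250 by edgeR. No listed acute-phase gene was called lower by edgeR. At an unadjusted p under 0.05 there were 0, 1 and 1 lower genes on the list, and DESeq2 gave 0, 0 and 1. Lcn2, the siderophore-binding lipocalin, had 265 and 269 CPM in Stc1-KO, 1136 and 913 CPM in Pygo1-KO, 1073 and 1104 CPM in Rlim-KO, and 61.5 and 62.1 CPM in WT. It rose 4.32-fold, 16.6-fold and 17.6-fold in Stc1-KO, Pygo1-KO and Rlim-KO (edgeR adjusted p = 0.00397, 0.000181 and 0.000241). Steap4, a metalloreductase induced in inflammation, rose 28.6-fold, 60.7-fold and 61.1-fold (edgeR adjusted p = 0.0161, 0.00578 and 0.00993). Serpina3n, a secreted serine protease inhibitor, rose 2.96-fold, 8.53-fold and 3.76-fold (edgeR adjusted p = 0.0399, 0.00311 and 0.0206). The list's median log2 difference was 1.17, 1.94 and 1.29 in Stc1-KO, Pygo1-KO and Rlim-KO, the highest of the 5 pathway lists in each. Because the lists were chosen with earlier results of these data known, this ranking and the counts are a description.

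Several acute-phase genes were high in some KO libraries without a call by edgeR, and DESeq2 called some of them. C3, the central complement component, had 2149 and 8704 CPM in Stc1-KO, 9519 and 6061 CPM in Pygo1-KO, 3997 and 4089 CPM in Rlim-KO, and 1018 and 1004 CPM in WT. Its KO libraries all stood above WT, and the spread within the Stc1-KO pair was wide (edgeR adjusted p = 0.143, 0.0615 and 0.144 in Stc1-KO, Pygo1-KO and Rlim-KO), while DESeq2 called C3 higher in all 3. Orm1, an alpha-1-acid glycoprotein, had 0.180 and 1.60 CPM in Stc1-KO, 21.3 and 4.49 CPM in Pygo1-KO, 4.65 and 3.88 CPM in Rlim-KO, and 0.651 and 0.426 CPM in WT. Like Saa1 and Saa2 it was highest in Pygo1-KO replicate 1, and its Stc1-KO libraries overlapped WT; DESeq2 called it higher in Pygo1-KO.

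Calls among receptors and lipoprotein partners of serum amyloid A were few, as they were over all genes. Of 19 receptors and binding partners, 15 were tested, and edgeR called 0 in Stc1-KO or Rlim-KO, beside 0.577% and 1.4% of all tested genes. At shares this low, 0 of 15 does not set the list apart from all genes. An unadjusted p under 0.05 was reached by 5 in Stc1-KO and 3 in Rlim-KO, where DESeq2 gave 0 and 2 calls. In Stc1-KO 2862 of all 17839 tested genes reached it. DESeq2 called more of all genes than edgeR in both comparisons, 835 in Stc1-KO and 1252 in Rlim-KO. Scarb1, the receptor of high-density lipoprotein, had 129 to 201.1 CPM in KO libraries, against 151 and 164 CPM in WT, and was not called. Of 21 high-density lipoprotein and retinol partners, 13 were tested, and edgeR called 2 lower in Stc1-KO and 1 lower in Pygo1-KO, beside 0.291% and 0.807% of all tested genes. It called 0 in Rlim-KO, beside 0.617% of all genes lower and 0.785% higher. At an unadjusted p under 0.05 there were 2 higher and 3 lower members in Rlim-KO. DESeq2 called 2 higher there, Pltp and Apoc1, and 2 lower, Abca1 and Pla2g2a. Pltp, the phospholipid transfer protein, had 0 and 0.0799 CPM in Stc1-KO, 0.126 and 0.0413 CPM in Pygo1-KO, 7.55 and 7.75 CPM in Rlim-KO, and 2.55 and 2.62 CPM in WT. It fell in Stc1-KO (log2 -5.94 ± 0.81, edgeR adjusted p = 0.0368) and in Pygo1-KO (log2 -4.91 ± 0.73, edgeR adjusted p = 0.0297). Pla2g2a, a secreted phospholipase and acute-phase gene, fell in Stc1-KO (log2 -5.77 ± 0.71, edgeR adjusted p = 0.0278), with 0.0277 and 0 CPM in Stc1-KO against 0.794 and 0.865 CPM in WT.

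No source used here states whether counting used strand, so reads of Cebpd cannot be told from those of the overlapping Spidr, nor Pltp from Ctsa, Pla2g2a from Pla2g5, Nfkb1 from Gm43430 or Ltbp2 from D030025P21Rik.

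The calls in these lists depended on the libraries of the fit. Of 37 called pairs of a named gene and a comparison, 3 were also called without WT replicate 1 and 4 without WT replicate 2, and 15 were called without either Rlim-KO library in turn. Lcn2 in Pygo1-KO and in Rlim-KO against WT was called with any 1 of the 8 libraries left out (highest edgeR adjusted p = 0.0142 and 0.0304).

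The genes whose pattern was most like that of Saa3 were found by Pearson's r of log2(CPM + 0.5) over the 8 libraries and were drawn from 449 genes that averaged 5 CPM or more and spanned at least 2 log2 units, predicted genes left out. They were Lcn2 (r = 0.967), Steap4 (0.964), Ltbp2 (0.956), Neurl3 (0.955), Chil1 (0.953), Hhip (0.940), Il33 (0.935) and Cebpd (0.934). The 8 points share the WT pair and the group structure, so these values are a description. Ltbp2, which encodes a matrix protein, had 94.7 and 136 CPM in Stc1-KO, 203 and 221 CPM in Pygo1-KO, 179 and 177 CPM in Rlim-KO, and 11.3 and 11.1 CPM in WT. Chil1, a secreted chitinase-like protein, had 3.795 and 7.84 CPM in Stc1-KO, 49.2 and 17.4 CPM in Pygo1-KO, 21.2 and 23.8 CPM in Rlim-KO, and 2.5 and 2.67 CPM in WT. Both were lowest in WT and lower in Stc1-KO than in the other KO groups, and Chil1 shared with Saa3 its peak in Pygo1-KO replicate 1. Il33, an alarmin cytokine, had 7.92 and 13.4 CPM in Stc1-KO, 31.9 and 15.4 CPM in Pygo1-KO, 14.8 and 12.9 CPM in Rlim-KO, and 5.93 and 5.91 CPM in WT.

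**Figure D5:**
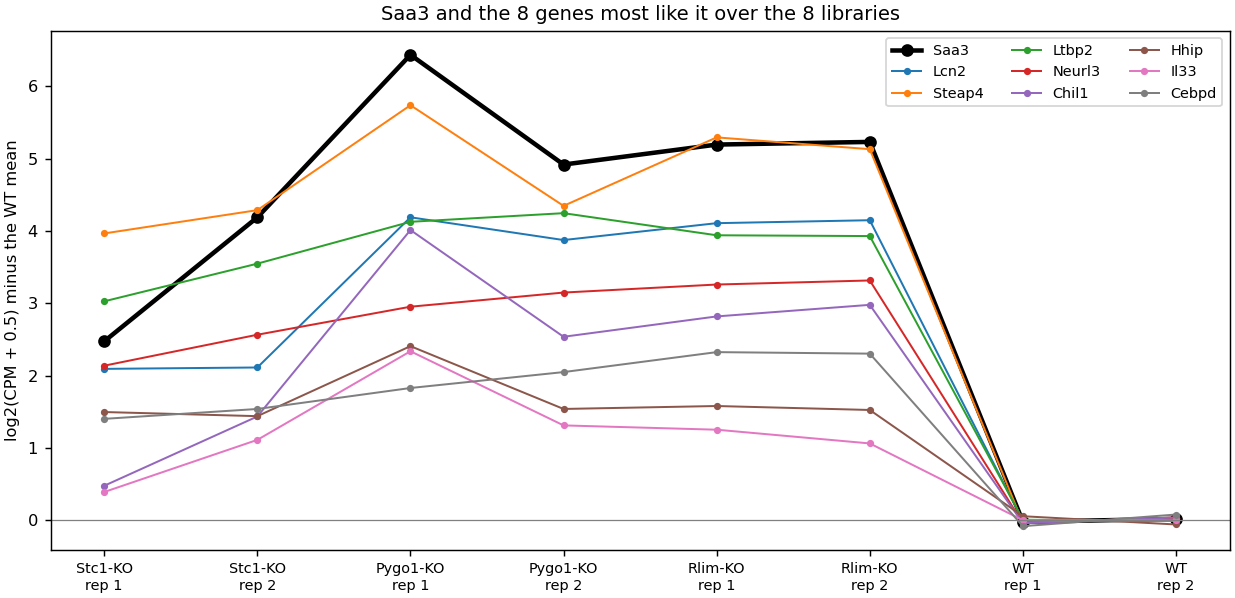
Saa3 and the 8 genes most like it, as log2(CPM + 0.5) minus the mean of the WT libraries, by library; lines join the libraries only to guide the eye. Every gene shown is lower in both WT libraries than in any KO library.

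Markers of other cell types that make serum amyloid A were set beside these levels. Of 8 hepatocyte markers, Alb, Ttr and Ahsg were under 0.05 CPM in every library, and the summed level was 0.0385 to 0.305 CPM in KO libraries, against 1.24 and 0.990 CPM in WT. The 10 macrophage and leukocyte markers summed to 30.5 to 60.6 CPM in KO libraries, against 52.0 and 53.5 CPM in WT; most of this was Csf1r, while Adgre1 and Cd3e were under 0.05 CPM in every library. The 6 adipocyte markers summed to 0.655 to 2.75 CPM in KO libraries, against 1.85 and 1.03 CPM in WT, and the 8 epithelial markers to 2.32 to 22.8 CPM in KO libraries, against 12.4 CPM in both WT libraries. The hepatocyte sums were lower in every KO library than in either WT library. Most of the WT sum was Hnf4a, at 1.12 and 0.927 CPM, while every other member was at or under 0.0781 CPM in every library. Hnf4a was called in no comparison by edgeR, and lower in Pygo1-KO and Rlim-KO than in WT by DESeq2. The ranges of the other 3 lists overlapped WT. For the leukocyte and epithelial sums this came from Stc1-KO replicate 1 alone. In all other KO libraries these sums stood below both WT libraries. Most of the epithelial sum in WT and Stc1-KO was Cdh1, so these sums do not describe the lists as a whole. The median log2 difference of 5 tested leukocyte markers was 0.34, 0.22 and 0.94 in Stc1-KO, Pygo1-KO and Rlim-KO. That of 5 tested epithelial markers was -0.18, -0.26 and 0.41. Cd68, a macrophage lysosomal protein, had 7.61 and 6.52 CPM in Pygo1-KO against 1.81 and 2.39 CPM in WT. It was the 1 leukocyte marker of 5 tested that edgeR called there, beside 1.54% of all genes called higher. Cd68 also stood above both WT libraries in Stc1-KO, at 2.67 and 2.64 CPM, and in Rlim-KO, at 4.19 and 3.89 CPM. Neither difference was called by edgeR. Cdh1, the epithelial cadherin, had 20.1 and 6.36 CPM in Stc1-KO, 0.201 and 0.344 CPM in Pygo1-KO, 0.498 and 0.514 CPM in Rlim-KO, and 9.52 and 8.91 CPM in WT. It was called lower than in WT in Pygo1-KO and Rlim-KO (edgeR adjusted p = 0.0161 and 0.0298) and was not called in Stc1-KO against WT. The part of these markers in the differences above was not tested.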

How the data were processed

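RNA was extracted with Trizol, and TruSeq libraries were made from 1 microgram, per the labels' protocols. HISAT2 2.0.5, Cufflinks, featureCounts and mm10 are named in the submitters' processing notes, without a role or order. The values deposited by the authors are whole-number counts per Ensembl gene for all reads and for reads of genome 1 and genome 2. The annotation version, strand setting, treatment of multiply matching reads and the tool that split the genomes are not given in the sources used here. Totals per library were 73128996 to 81500061, and WT values of Saa1 and Saa2 rest on 18 reads or fewer.

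Symbols, coordinates and sequences came from the GENCODE annotation of GRCm38; 259 of 49670 identifiers had no entry. edgeR 4.0.16 was fitted on all 8 libraries with TMM scaling, filterByExpr (cutoff 0.132 CPM) and 1 mean per group, and p-values were adjusted over 17839 genes and called under 0.05. CPM used effective library sizes. Genome shares of single libraries needed at least 20 assigned reads per gene and library. Shares of the members over the 8 libraries together used all assigned reads, without a minimum. Counts and medians over chromosome 7 and the autosomes used genes with at least 50 assigned reads in every library. Floors for 0 reads are 3 reads. In each list at most 4 called genes per comparison were named, by adjusted p, and neighbours were tested genes within 500 kb that averaged at least 5 CPM, and the 8 genes most correlated with Saa3 were named; other genes were chosen after their values were seen. Alternatives were DESeq2 1.42.0, its size factors, no filter, compared groups alone, a replicate block, summed near copies and libraries left out in turn. The members and lists were chosen with earlier results of these data known. The calls among receptors and binding partners in Pygo1-KO are not reported here.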

Additional observations from a re-analysis of the deposited data

Results flagged for a closer look

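Lcn2 and Pltp differed in their response between knockouts, by the test of that difference itself. The Stc1-KO effect on Lcn2 minus the Rlim-KO effect was -2.03 ± 0.14 on the log2 scale (edgeR adjusted p = 0.0087), with 265 and 269 CPM in Stc1-KO against 1073 and 1104 CPM in Rlim-KO. For Pltp the same difference was -7.50 ± 0.83 (edgeR adjusted p = 0.0353), with 0 and 0.0799 CPM in Stc1-KO against 7.55 and 7.75 CPM in Rlim-KO. Each group had 2 libraries, and both calls ended when any 1 of the WT or Rlim-KO libraries was left out (edgeR adjusted p between 0.0572 and 0.158 for Lcn2 and between 0.163 and 0.344 for Pltp).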

How the results depend on the processing

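No result changed direction under any alternative run, and the numbers of genes called moved widely. For Pygo1-KO against WT, 419 genes were called, with 867 without the filter, 1566 by DESeq2, 1699 with the compared groups alone and 8 to 3678 with a library left out. For Stc1-KO against WT, 103 were called, with 361, 835, 0 and 3 to 4484 in the same order; edgeR's count of 0 stands beside 1735 genes at an unadjusted p under 0.05. For Rlim-KO against WT, 250 were called, with 610, 1252, 8340 and 3 to 3036, and for Stc1-KO against Rlim-KO 68, with 333, 776, 12 and 2 to 4844. The highest counts came without a Stc1-KO library and the lowest without a WT or Rlim-KO library; the cause was not tested. With the replicate number as a block, 109, 18, 26 and 7 genes were called in Pygo1-KO, Stc1-KO and Rlim-KO against WT and in Stc1-KO against Rlim-KO, and the Rlim-KO differences of Saa1 and Saa3 were 7.13 and 5.42 (edgeR adjusted p = 0.0766 and 0.0808). Libraries with the same number did not deviate together throughout, with correlations over 10445 genes between -0.21 (Stc1-KO and Pygo1-KO) and 0.395 (Rlim-KO and WT). Without the filter, the Stc1-KO differences from WT of Saa1 and Saa3 were 3.90 and 3.74, the Rlim-KO difference of Saa2 was 5.82, and the Stc1-KO differences from Rlim-KO of Saa1 and Saa2 were -3.15 and -3.82, all called. DESeq2 called these as well, at 3.96, 3.77, 5.85, -3.15 and -3.82, and Saa3 in Stc1-KO against Rlim-KO at -1.66. Saa2 in Rlim-KO was called with the compared groups alone (5.84) and when summed with Saa1 (6.29). With a library left out, Stc1-KO against WT gave 3.63 to 4.17 for Saa1, 0.92 to 2.90 for Saa2 and 2.65 to 4.39 for Saa3; Rlim-KO against WT gave 6.90 to 7.27, 5.30 to 6.71 and 5.41 to 5.45; Stc1-KO against Rlim-KO gave -3.43 to -2.90, -4.92 to -3.20 and -2.77 to -1.03; and Pygo1-KO against WT gave 6.64 to 9.13, 4.88 to 7.75 and 5.12 to 6.64. Where this left a single library in a group, it was assumed to vary like the other groups. Of the 37 calls of other named genes, DESeq2 kept 37, the replicate block 21 and the compared groups alone 25. Saa4 was not tested under the filter and has no main result to compare. The fit without the filter and DESeq2 kept every gene with a read, Saa4 included, but its values there are not reported here. With a minimum of 50 assigned reads, the genome 1 share was 0.110% for Saa1 and 0.589% for Saa2, each over 5 libraries, against 0.108% and 0.612% over 6 with the minimum of 20; that of Saa3 was 0.807% in both cases. With 2 libraries per group, spread between libraries limits precision, and Saa1, Saa2 and Saa4 have few reads in WT.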
